A study of Homo sapiens with 8 samples.

Results

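The cytosolic ribosomal protein genes encode the proteins of the large and the small subunit of the ribosome that translates nuclear mRNAs. They were taken by name alone: a gene was a member when its name on the array was RPL or RPS followed by digits and then nothing, A or X, or was RPLP0, RPLP1, RPLP2 or RPSA. No measured value entered this choice. The rule found 77 genes of the 36337 gene names on the array, 46 of the large and 31 of the small subunit, read by 177 probes. A single probe read 28 of the genes and the other 49 had 2 to 9 probes each.

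Ribosomal proteins are made in equal amounts and assembled with ribosomal RNA in the nucleolus, and a protein made in excess is degraded. Their mRNAs are among the most abundant in a growing cell. Most of them begin with a 5' terminal oligopyrimidine (TOP) tract, a run of C and T at the transcription start through which mTORC1 and the RNA-binding protein LARP1 set their translation together. A few of the proteins act outside the ribosome, and RPL5 and RPL11, together with 5S ribosomal RNA, bind the ubiquitin ligase MDM2.

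The cells were HCT116, a human colorectal cancer line, in 4 clones that had been selected with G418. CONT1 and CONT2 carried a control plasmid, pcDNA6.2-GW/EmGFP-miR-neg, and TET1-KD1 and TET1-KD2 a vector encoding an artificial miRNA against TET1, an enzyme that oxidises 5-methylcytosine. Each clone was measured untreated and after 72 h with 1 µM of the DNA methyltransferase inhibitor 5-aza-2'-deoxycytidine, or 5-aza-dC, on 1 one-color array each, so each condition held 2 clones (n = 2). The arrays were grouped by their titles, since the field of the labels that names the treatment goes by the kind of clone and conflicts with them. Each clone is a line of its own, and the 2 knockdown clones carried different miRNAs against TET1, so the spread within a condition is that between clones.

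The 8 arrays lay on 2 slides. Slide 1 held 6 arrays, the 4 untreated clones and the 2 treated knockdown clones, and slide 2 held the 2 treated control clones. The effect of 5-aza-dC in the knockdown clones and the untreated comparison of the clones therefore lay within 1 slide, whereas for 5-aza-dC in the control clones the slide and the treatment cannot be told apart. The 10 spike-in RNAs are added in fixed amounts. Before any scaling between arrays, they read between -1 and 0 on the log2 scale on slide 2 relative to slide 1. The dimmer spike-ins E1A_r60_a135 and E1A_r60_a20 differed by -1 each and the brightest, E1A_r60_1, by -0.04. The scaling of the arrays used below shifts these differences. TET1 itself read 9.70 and 9.75 (log2) in untreated CONT1 and CONT2 and 8.65 and 9.41 in TET1-KD1 and TET1-KD2 on its brightest probe, a difference of -0.69 ± 0.29 (SE) that did not pass the test (adjusted p = 0.61, limma). A second probe differed by -0.98 and did not pass either (adjusted p = 0.585). Its remaining probe, above background on only 2 of the 8 arrays, read 4.95 and 4.38 in the control clones and 2.19 and 2.85 in the knockdown clones, and no difference is given for it. By RT-qPCR, a separate measurement, the study reported less TET1 mRNA in both knockdown clones than in controls, with the larger reduction in TET1-KD1. Of all probes tested, 19.2% were called higher and 22.6% lower after 5-aza-dC in the control clones, and 8.9% and 2.89% in the knockdown clones. All 7 epithelial markers were tested, with 1 higher and 2 lower in the treated control clones and none called in the treated knockdown clones. Of 7 markers of other cell types, CD3E and COL3A1 were not above background on both arrays of any condition. Of the remaining 5, 4 were higher after 5-aza-dC in control clones and CDH5 was lower (-2.10, adjusted p = 0.019, limma). In knockdown clones 1 of these 5 markers was higher and 0 were lower. Their part in the results on the ribosomal protein genes was not tested.

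The array reads each gene through probes of 60 bases, and several of the genes are read by probes that overlap along the same sequence. These are printed because the results below turn on how such probes compare. Among the probes of the same gene, 18 pairs in 13 genes shared an overlap of at least 30 bases with at most 15% of the overlapping bases differing, and none of the pairs was identical over the overlap. Positions are those of the array design on hg19, and where a range is longer than 60 bases it includes bases between the parts of the probe. No genome of this build was used here, so exons and untranslated regions are not given. Ribosomal protein genes have many processed pseudogenes, and whether a probe also binds their transcripts was not tested. In each set, capitals mark the bases that differ from the first probe of that gene, and the first probe is in lower case throughout. RPSA, a small-subunit protein also known as the laminin receptor, was read by A_23_P254415 (chr3:39453399-39453458, plus strand) and A_24_P349743 (chr3:39453264-39453441), which share 43 bases and differ at 3 of them.
RPSA A_23_P254415: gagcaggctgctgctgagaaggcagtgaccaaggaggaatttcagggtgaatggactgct
RPSA A_24_P349743: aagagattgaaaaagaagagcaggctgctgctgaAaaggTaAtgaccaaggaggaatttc

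RPS10, a protein of the small-subunit head, was read by A_23_P318646 (chr6:34392582-34392872, minus strand) and A_32_P14894 (chr6:34392598-34392888), with 44 shared positions of which 5 differ. RPS15A was read by A_24_P221366 (chr16:18799461-18800358, minus strand) and A_32_P14744 (chr16:18799442-18800339), which differ at 1 of 41.
RPS10 A_23_P318646: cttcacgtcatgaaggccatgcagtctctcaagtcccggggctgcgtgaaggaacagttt
RPS10 A_32_P14894: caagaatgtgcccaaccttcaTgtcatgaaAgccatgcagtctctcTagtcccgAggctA
RPS15A A_24_P221366: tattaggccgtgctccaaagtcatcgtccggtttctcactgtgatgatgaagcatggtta
RPS15A A_32_P14744: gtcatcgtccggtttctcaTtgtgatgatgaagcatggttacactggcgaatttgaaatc

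RPS3A was read by A_32_P58074 (chr4:152024086-152024145, plus strand), A_24_P383999 (chr4:152024088-152024146) and A_32_P135818 (chr4:152024067-152024126), the latter 2 each with 3 bases that differ from the first. RPL21 was read by A_32_P57237 (chr13:27829448-27830336, plus strand) and A_32_P234738 (chr13:27829472-27830360), which differ at 1 of 36.
RPS3A A_32_P58074: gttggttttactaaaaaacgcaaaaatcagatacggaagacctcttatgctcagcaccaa
RPS3A A_24_P383999: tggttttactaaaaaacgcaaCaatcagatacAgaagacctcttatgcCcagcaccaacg
RPS3A A_32_P135818: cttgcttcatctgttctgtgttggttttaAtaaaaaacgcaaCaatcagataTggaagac
RPL21 A_32_P57237: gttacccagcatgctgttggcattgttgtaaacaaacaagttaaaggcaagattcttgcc
RPL21 A_32_P234738: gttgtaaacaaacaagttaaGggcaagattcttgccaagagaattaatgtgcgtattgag

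A feature the members share, and that the naming rule did not use, is the pyrimidine tract at the start. RefSeq promoters (GRCh38.p14, 300 bases around the annotated start, most of them before it) were matched for 62 of the 77 genes. A tract was counted on the coding strand as a C within 5 bases of the start, followed by at least 4 bases that are C or T. It was present in 80.6% of these promoters (50 of 62) and in 21.1% of all 27303 promoters of the table. With at least 6 such bases the shares were 72.6% and 7.58%. The promoters of the mitochondrial ribosomal protein genes, whose products serve the ribosome inside mitochondria, held the shorter tract in 21.7% of 69, and those of 14 other translation genes with TOP mRNAs in 85.7%. CpG dinucleotides, the sites that 5-aza-dC leaves unmethylated after replication, numbered 23 (median) in the 300 bases of the members and 14 in all promoters. The letters TATAAA, searched on the same strand, were in 3.23% of the members' and 2.75% of all promoters. The starts of RPS6, the substrate of the S6 kinases (chr9:19380215-19380281, minus strand), RPS12 (chr6:132814524-132814590, plus strand) and RPSA (chr3:39406675-39406741, plus strand) are printed as 45 bases before and 22 from the annotated start, with the tract in capitals, to show what the members have in common.
RPS6: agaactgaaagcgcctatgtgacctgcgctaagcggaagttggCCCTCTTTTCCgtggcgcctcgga
RPS12: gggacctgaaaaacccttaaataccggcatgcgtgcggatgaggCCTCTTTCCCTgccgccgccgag
RPSA: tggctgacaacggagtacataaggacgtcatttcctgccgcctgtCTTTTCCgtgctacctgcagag

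For counting genes, each was represented by its brightest probe, the one with the highest mean log2 scaled intensity over the 8 arrays. This mean includes the treated arrays, so a probe that rose there was more likely to be chosen. In the untreated control clones another probe was brighter for RPL6 (17.51 against 17.21), RPL5 (17.15 against 16.97) and RPL36A (17.07 against 16.98), among others. The probes chosen were above background on every array for all 77 genes. Their mean log2 intensity ran from 7.45 for RPL27A to 18.56 for RPS2 with a median of 17.15, and 73 of the 77 were at 16 or more. Intensities of different probes depend on the probe and are not compared as levels of their genes. The members were measured with little spread, since the median SD between the 2 clones of a condition was 0.05 on the log2 scale. Of all 177 probes, 174 were tested, and the other 3 were left out because they were not above background on both arrays of any condition. No spot of a member was saturated.

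In the TET1 knockdown clones, where all 4 arrays shared a slide, none of the 77 genes was called after 5-aza-dC. The samples are bulk RNA, in which fewer cells and less RNA per cell cannot be told apart. At an adjusted p below 0.05 in limma, 8.9% of the 27286 probes tested were called higher and 2.89% lower, against 0 and 0 of the 77. Calls were rarer among bright probes such as most of the members' own. Of the 229 other probes at log2 16 or more, 0% were called higher and 0.873% lower. At an unadjusted p below 0.05 there was 1 member, RPL22, and the methods' t-test called 6 unadjusted and 0 after adjustment. Over all 27286 probes the methods' t-test called 4500 unadjusted and 0 after adjustment. The log2 differences lay between -0.38 and 0.08, with a median of -0.10 beside -0.07 over all probes tested. Of the 77 genes, 67 were below 0, and the 95% interval of a single gene reached a median of 0.35 to each side. By clone the responses were tight: TET1-KD1 had a median of -0.02 with an SD over the genes of 0.11 and 43 genes below 0, and TET1-KD2 a median of -0.18 with an SD of 0.11 and 74 genes below 0.

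RPL22, an RNA-binding protein of the large subunit, had the smallest p of the members in the knockdown clones. Its brightest probe read 14.41 and 14.57 untreated and 14.13 and 14.10 treated in TET1-KD1 and TET1-KD2, with a difference of -0.38 ± 0.14 (SE; adjusted p = 0.144, limma). The treated values were below the untreated ones in both clones. RPS15, a small-subunit protein whose tail reaches the decoding site, read 17.16 and 17.31 untreated and 16.83 and 17.04 treated (-0.30, adjusted p = 0.265). RPL10, which joins the large subunit late in its maturation, read 17.10 and 17.18 untreated and 16.90 and 16.91 treated (-0.24, adjusted p = 0.322). None of these differences passed the test. Among all 174 tested probes a single one did, a dimmer probe of RPS2 (A_33_P3563369), which read 11.49 and 11.72 untreated and 10.74 and 10.95 treated (-0.76, adjusted p = 0.042), while the brightest probe of RPS2 differed by -0.12.

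**Figure D1:**
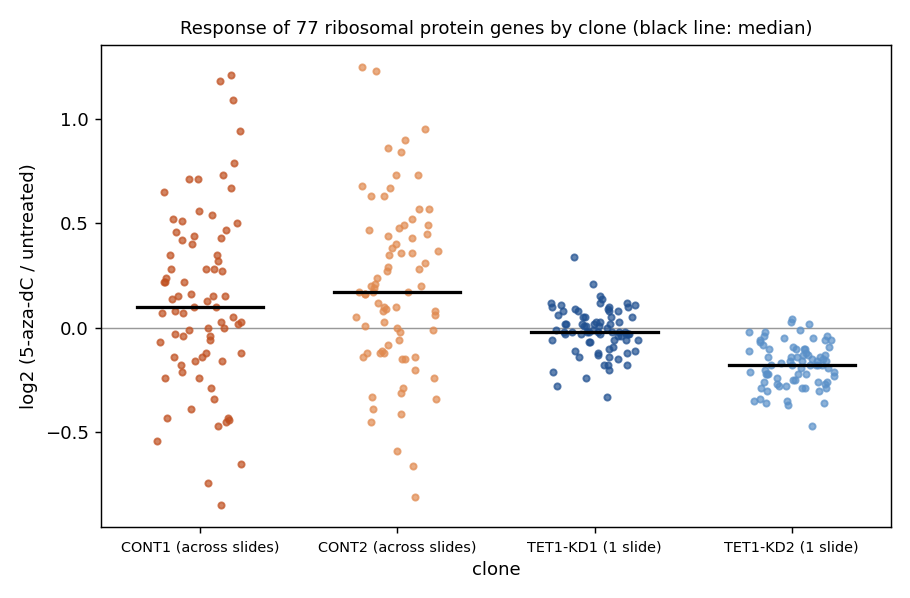
The log2 difference between treated and untreated array of the same clone (vertical axis) is plotted for each of the 77 genes by its brightest probe, with a black line at the median. The TET1 knockdown clones, measured on 1 slide, have an SD over the genes of 0.11 each, and the control clones, measured across 2 slides, of 0.43 and 0.41.

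Untreated, no member was called between the knockdown and control clones. Of all probes tested, 0.00733% were higher and 0.00733% lower in the knockdown clones, and of the 77 genes 0 were called by limma, 0 reached an unadjusted p below 0.05 and 0 were called by the methods' t-test. The differences had a median of -0.02 and ran from -0.22 to 0.55. RPL27A had the highest value, on a probe much dimmer than those of the other members: it read 7.06 and 7.17 in the control clones and 7.54 and 7.79 in the knockdown clones (0.55, adjusted p = 0.614). The groups did not overlap for this gene, yet the difference did not pass the test. RPS27A, which is translated as a fusion with ubiquitin, differed by 0.18 (adjusted p = 0.714). Of the partners of 5S ribosomal RNA, RPL5 was at 0.07 and RPL11 at -0.02, and of the stalk RPLP0 was at -0.05, RPLP1 at -0.13 and RPLP2 at -0.02.

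In the control clones, whose treated arrays were on slide 2, the same genes spread widely in both directions. Of all probes tested, 19.2% were called higher and 22.6% lower after 5-aza-dC, and of the 77 genes 18 were called higher and 5 lower. This count rests on the brightest probes, and over all 174 member probes 29 were called higher and 29 lower. Of the 229 other probes at log2 16 or more, 39.3% were called higher and 4.8% lower. The shares were 20.7% and 8.26% for the 121 member probes in that range. The members' median was 0.14 and that of all probes -0.08. The differences ran from -0.83 to 1.22. The 2 clones repeated this pattern: the SD over the genes was 0.43 in CONT1 and 0.41 in CONT2, and over the 174 member probes the responses of CONT1 and CONT2 correlated at r = 0.92. The corresponding r between TET1-KD1 and TET1-KD2 was 0.39. These are correlations across probes, which are not independent, and the treated arrays of CONT1 and CONT2 share a slide. Slide and treatment cannot be told apart here, so the values that follow describe treated arrays of slide 2 against untreated arrays of slide 1.

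Among those higher, RPS12, a protein of the small-subunit head, read 16.87 and 16.80 in untreated CONT1 and CONT2 and 18.09 and 18.03 after treatment, which is 2.33-fold (log2 1.22 ± 0.14 SE, adjusted p = 0.0012, limma). TET1-KD1 and TET1-KD2 read 16.87 and 16.97 untreated and 16.66 and 16.72 treated, so the 2 treated control arrays stood above all 6 others. RPL6, a large-subunit protein, read 17.17 and 17.24 untreated and 18.36 and 18.49 treated in the control clones (1.22 ± 0.15, adjusted p = 0.0017), and 16.90 to 17.28 in the knockdown clones. RPS10 followed at 1.02, RPL23A, which lies at the exit of the peptide tunnel, at 0.92 and RPL31, another protein of the tunnel exit, at 0.82. These 3 differed by -0.07, -0.06 and -0.09 in the knockdown clones. The other tested probes of RPL31 gave 0.37 and -0.02 in the control clones and were not called. Those of RPL23A gave 0.04, 0.76 and 0.32, of which only the probe at 0.76 was called, and RPS12 had a single probe.

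Among those lower, RPL17, also near the tunnel exit, read 16.35 and 16.32 untreated and 15.50 and 15.51 treated in the control clones on its brightest probe (-0.83 ± 0.15, adjusted p = 0.0069). The other 3 probes of RPL17 gave 0.15, 0.11 and -0.29 and were not called, so this call rests on 1 of its 4 probes. RPL22 read 14.48 and 14.44 untreated and 13.74 and 13.78 treated (-0.70, adjusted p = 0.0097). RPL29, a small basic protein of the large subunit, differed by -0.62 and RPL28 by -0.49, and RPS7, which binds MDM2 when free of the ribosome, by -0.43. Of these 5, RPL17 differed by -0.14 in the knockdown clones, RPL22 by -0.38, RPL29 by -0.08, RPL28 by -0.00 and RPS7 by -0.06. RPL28 had 2 further probes, at -0.26 and -0.11 in the control clones, that were not called, and a dim one given below as a bound.

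By role, of the 3 proteins of the lateral stalk, which recruits elongation factors, RPLP1 and RPLP2 were called higher in the control clones. RPLP1 read 17.92 and 17.85 untreated and 18.37 and 18.29 treated (0.45, adjusted p = 0.043). RPLP2 read 17.60 and 17.57 untreated and 18.33 and 18.14 treated (0.65, adjusted p = 0.016). RPLP0, the protein on which those 2 assemble, read 17.79 and 17.72 untreated and 17.36 and 17.39 treated (-0.38, adjusted p = 0.063). Its second probe, A_23_P204472, read 17.41 and 17.33 untreated and 17.59 and 17.59 treated (0.22, adjusted p = 0.239), so the 2 probes of RPLP0 differed in sign and neither was called. In the knockdown clones the values of the brightest probes of RPLP0, RPLP1 and RPLP2 were -0.17, -0.14 and -0.19. RPL5 and RPL11, the partners of 5S ribosomal RNA, were called higher in the control clones (0.58, adjusted p = 0.026, and 0.52, adjusted p = 0.028) and differed by -0.23 and -0.15 in the knockdown clones. The RPL5 call holds for its brightest probe and not for all its probes, as described below.

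Of the 4 X-linked members, RPL36A was called higher in the control clones on its brightest probe (0.72, adjusted p = 0.0094). Its other probe, which overlaps that one by 42 bases with 1 difference, gave -0.06, so the call holds for 1 of 2 probes. The other 3 had values of 0.21 for RPL10, 0.18 for RPL39, which lines the peptide tunnel, and 0.03 for RPS4X on their brightest probes. A dimmer probe was called higher for RPL39 (0.60, adjusted p = 0.015) and lower for RPL10 (-1.08, adjusted p = 0.0019). The brightest probes of the 4 ran from -0.24 to 0.03 in the knockdown clones. Other members with known roles lay between -0.18 and 0.26 in the control clones on their brightest probes. RPL3, at the peptidyl transferase centre, was at 0.12, RPL12, at the base of the stalk, at 0.14, and RPS3, at the mRNA entry, at 0.04. RPS6 was at 0.17, RPS14, lost in the 5q- syndrome, at -0.18, and RPS19, mutated in Diamond-Blackfan anaemia, at -0.13. RPL23 and RPL26, which bind MDM2, were at 0.06 and 0.26, RPL38 at 0.01, RPL41 at 0.03 and RPS27A at 0.02. None of these 11 passed the test in the control clones on its brightest probe. A dimmer probe was called higher for RPS6 (0.85, adjusted p = 0.011) and for RPL23 (0.51, adjusted p = 0.045). For RPS14 a dimmer probe was called lower (-0.52, adjusted p = 0.038). The knockdown values of the 11 brightest probes ran from -0.19 for RPL41 to 0.03 for RPS3. RPL38 in particular read 17.64, 17.62, 17.66 and 17.61 in the control arrays and 17.54, 17.58, 17.51 and 17.58 in the knockdown arrays, with untreated values given before treated ones.

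The direction of the members as a group in the control clones depended on how the arrays were scaled. With the 75th percentile 18 were higher and 5 lower, and with normexp background correction 17 and 8. With the spike-ins as the scale 7 were higher and 10 lower with a median of -0.07, where the median of all probes was 0.33. With quantile normalization 5 were higher and 20 lower (median -0.19, all probes -0.15). Centring the arrays on the other probes as bright as most members, at log2 16 or more, a choice made after seeing the data, gave 4 higher and 24 lower (median -0.28, all probes -0.50). Those other bright probes, 229 in all, had a median of 0.36 under the 75th percentile, beside 0.13 for the 121 member probes in the same range. For the knockdown clones the same 5 scalings gave medians from -0.10 to 0.02 and 0 members called under each. Of the 23 genes called in the control clones, 22 kept their sign under all 5 scalings, RPL27 being the exception, and 8 were called under all 5 on their brightest probe. These 8 were RPL6, RPS10 and RPS12, which were higher, and RPL17, RPL22, RPL28, RPL29 and RPS7, which were lower.

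**Figure D2:**
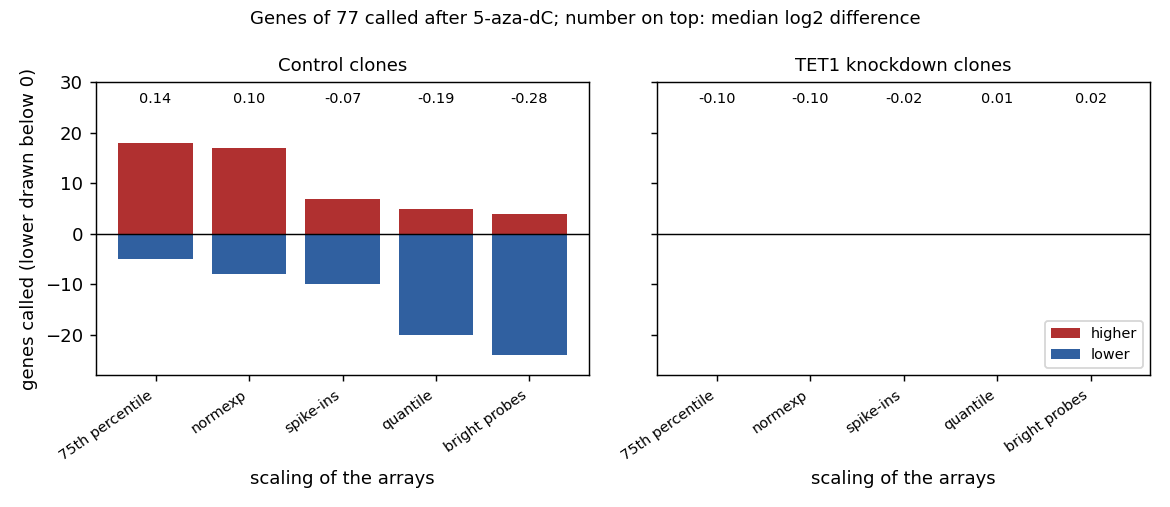
Bars give the number of the 77 genes called higher (above 0) and lower (drawn below 0) after 5-aza-dC, by the scaling of the arrays, and the number above each bar is the members' median log2 difference. In the control clones the calls turn from 18 higher and 5 lower to 4 higher and 24 lower, and in the knockdown clones no gene is called under any of the 5.

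Most genes with several probes had a wider spread between them in the control than in the knockdown clones. Over the 46 genes with at least 2 probes above background on all 8 arrays, the range between the lowest and the highest response of a gene's probes had a median of 0.64 in the control and 0.09 in the knockdown clones. It was wider in the control clones for 39 of the 46 genes. The range exceeded 1 for 12 genes in the control and for 0 in the knockdown clones. For the untreated comparison of the clones, within slide 1, the median range was 0.11. All 3695 other genes with at least 2 such probes had medians of 0.61, 0.21 and 0.15. The wide range in the control clones was therefore also found outside the ribosomal protein genes.

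RPSA had the widest contrast between probes. Its brightest probe, A_21_P0010639, read 17.58 and 17.47 in untreated control clones and 18.22 and 18.14 after treatment (0.66, adjusted p = 0.011). A_24_P349743, printed above, read 15.17 and 15.07 untreated and 13.59 and 13.38 treated (-1.64, adjusted p = 0.00073). A_23_P254415, which overlaps it by 43 bases, gave -0.73 (adjusted p = 0.0075), and the other 2 probes gave 0.31 each. Under 1 gene name, 1 probe was thus called higher and 2 lower. All 5 lay in the knockdown clones between -0.16 and -0.11. Under quantile normalization and the spike-in scale the range over the 5 probes in the control clones was 1.99 and 2.02, so it was not removed by the scaling.

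RPS10 behaved alike. A_23_P356484 rose (1.02, adjusted p = 0.0029), A_32_P14894 was at -0.05, A_23_P318646 at -0.52 (adjusted p = 0.035), and A_24_P418619, which read 15.46 and 15.36 untreated and 14.25 and 14.38 treated, at -1.10 (adjusted p = 0.0023). These 4 probes differed by -0.07, 0.02, -0.05 and 0.06 in the knockdown clones. RPL5, with 0.58, -0.62, -0.97 and 0.73 on its 4 probes, and RPL34, with 0.79 and -0.59, were likewise called in both directions in the control clones. Among the knockdown clones the probes of RPL5 ran from -0.23 to -0.10 and those of RPL34 gave -0.13 and -0.16. Genes called in both directions numbered 4 of the 46 members and 165 of the 3695 other genes.

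Further genes had a single probe that departed from the rest in the control clones. RPL13A gave -0.08, -0.20 and 1.18, RPL10 0.21, 0.10 and -1.08, and RPS15A 0.41, -0.01, 0.08 and -1.20. For RPL6 the brightest probe gave 1.22 and the other 2 gave -0.32 and -0.05, so the rise of RPL6 rested on 1 of its 3 probes. The pairs of overlapping probes showed the same within short stretches. Over the 18 pairs the responses differed by a median of 0.26 and at most 0.91 in the control clones, and by 0.04 and at most 0.15 in the knockdown clones. The difference was wider in the control clones for 16 of the 18. A difference of 0.91 was found for the RPL21 pair, with 0.42 and -0.49 for probes that differ at 1 of 36 shared bases and are shifted by 24, and also for the RPSA pair, with -0.73 and -1.64. The RPS15A pair gave -0.01 and 0.41, the RPS10 pair -0.52 and -0.05, and the RPS3A probes -0.79, -0.76 and -0.38. How much of each difference goes with the differing bases and how much with the shift along the mRNA was not tested.

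**Figure D3:**
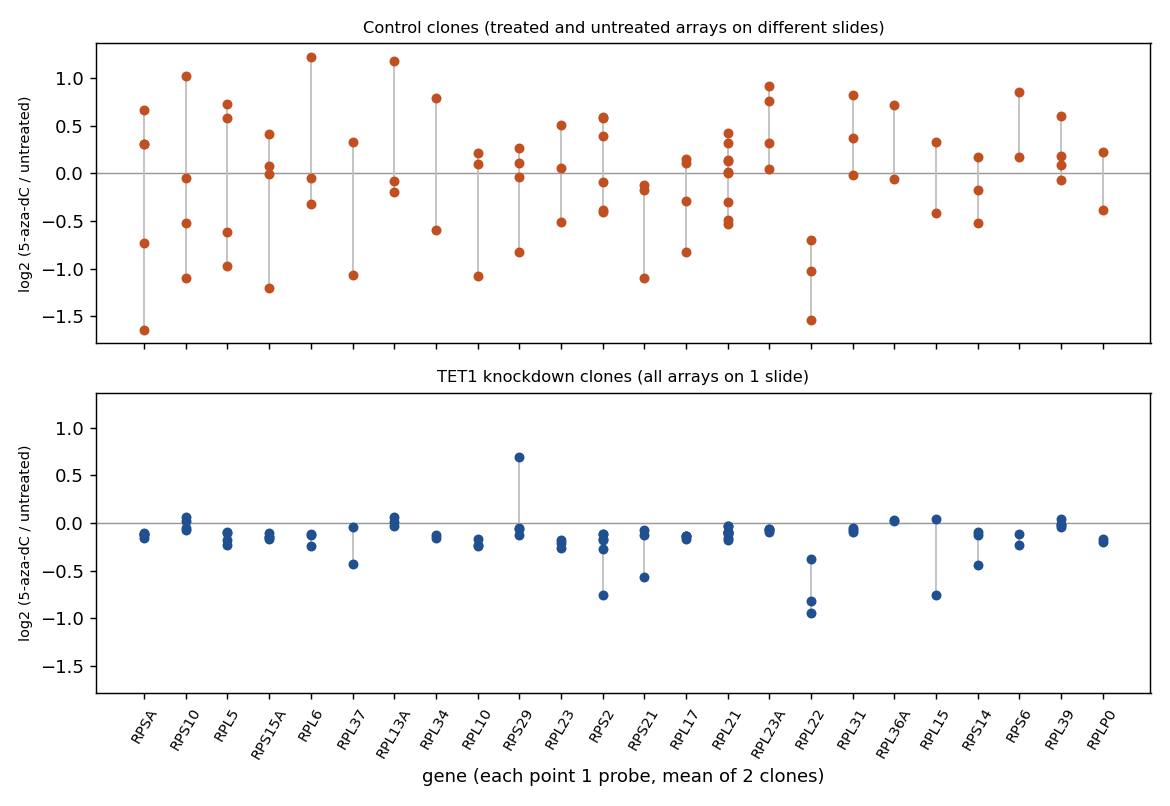
Each point is the log2 difference (5-aza-dC over untreated, mean of 2 clones) of 1 probe, for the 24 genes with the widest range between their probes in the control clones. In the control clones (top) the probes of RPSA span 2.30, and in the knockdown clones (bottom) those of RPSA lie within 0.05, while those of RPS29 and RPL15 span 0.83 and 0.80.

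Of the 46 genes with at least 2 probes compared above, 4 had all these probes called the same way in the control clones. How many of the genes outside the members did so was not counted. In the control clones 19.2% of all probes tested were called higher and 22.6% lower. The 3 probes of RPL22 were all lower, at -0.70, -1.02 and -1.54, with adjusted p-values of 0.0097, 0.038 and 0.0067. The same 3 probes differed in the knockdown clones by -0.38, -0.82 and -0.94, with adjusted p-values of 0.144, 0.144 and 0.082. The third, A_24_P849801 (chr1:6246039-6246098), read 11.45 and 11.44 in untreated and 9.95 and 9.86 in treated control clones, and 11.32 and 11.60 in untreated and 10.93 and 10.12 in treated knockdown clones. In TET1-KD1 the treated value of A_32_P210252 was 14.18 and in TET1-KD2 13.23, from 14.56 and 14.49 untreated. RPL22 was thus lower on every probe in all 4 clones, without passing the test in the knockdown clones. The array design places its brightest probe on chromosome 14 and the other 2 on chromosome 1.

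The 4 probes of RPL29 were lower by -0.57 to -0.72 in the control clones and differed by -0.03 to -0.11 in the knockdown clones. The 2 probes of RPS7 gave -0.43 and -0.71, and the 2 of RPS28, a small-subunit protein at the mRNA exit, 0.65 and 0.84. The RPS28 probes gave -0.18 and -0.13 in the knockdown clones. A further 3 probes had only a bound in the control clones, because they were not well above background on either array of 1 condition. A dim probe of RPL28 was at least 1.75-fold lower after treatment (adjusted p = 0.0021) and a dim probe of RPS24, well above background on 1 of the 2 treated arrays, at least 1.55-fold higher (adjusted p = 0.011). A dim probe of RPS20 was at least 1.25-fold lower without passing the test (adjusted p = 0.16). The floor was the lowest signal well above background on each array, or the probe's own where higher.

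**Figure D4:**
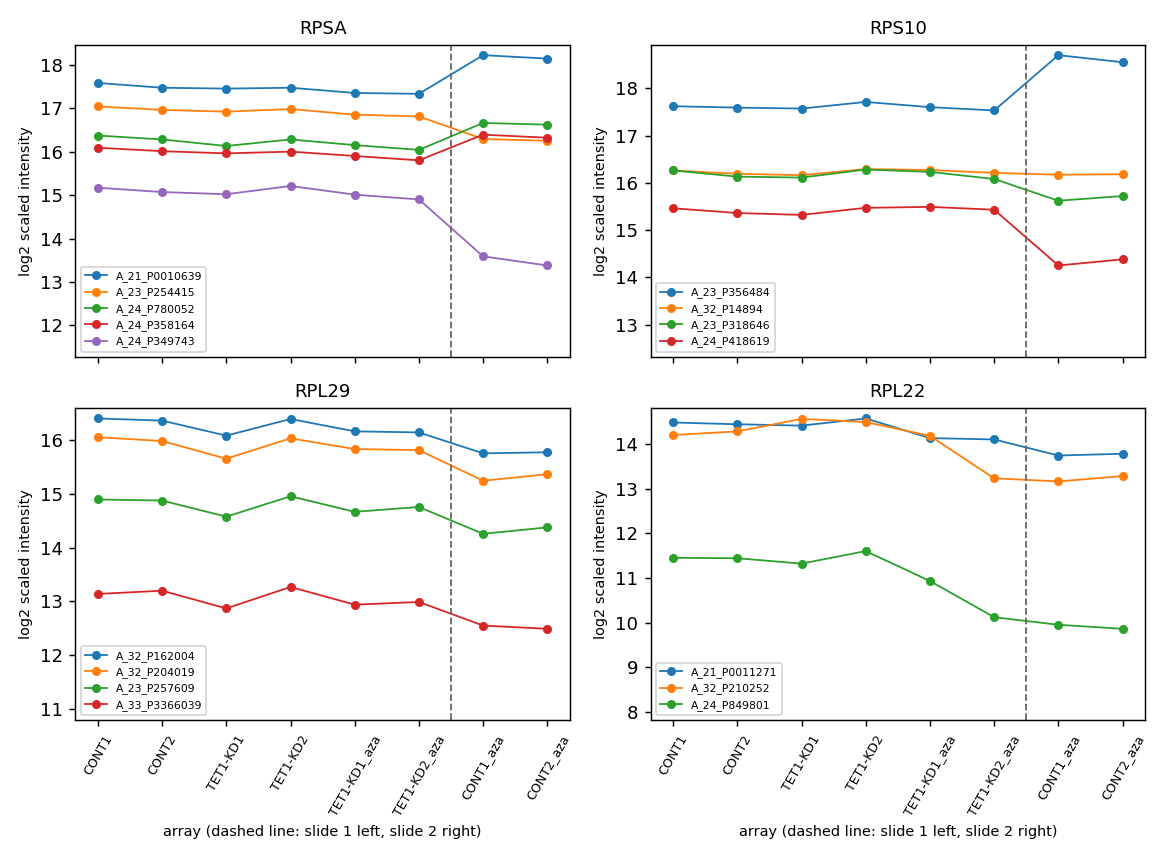
The log2 scaled intensity of each probe on each of the 8 arrays is drawn for RPSA, RPS10, RPL29 and RPL22, with slide 1 left and slide 2 right of the dashed line. The probes of RPSA and RPS10 run level over the 6 arrays of slide 1 and part on slide 2, those of RPL29 fall together on slide 2, and those of RPL22 are already lower in the treated knockdown clones on slide 1.

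Probe composition and brightness moved with the response in the control clones. The 45 member probes richest in G and C (46.7 to 55.0%) had a median of -0.18, the next 67 (43.3 to 45.0%) 0.12 and the 62 poorest (35 to 41.7%) 0.17. The medians were -0.08, -0.11 and -0.11 in the knockdown clones. Across the 174 probes the correlation of GC content with the response was r = -0.28 in the control and 0.05 in the knockdown clones, and that of mean intensity r = 0.31 and 0.16. RPS12, RPL6 and RPS10, the members with the largest rise, were read by probes of 35% GC, and RPL29 and RPL28 by probes of 55.0% and 53.3%. RPL22, which was lower, was also read by a probe of 35%. With the GC trend removed from each clone's response, RPL29 moved from -0.62 to -0.16, RPL28 from -0.49 to -0.11 and RPS7 from -0.43 to -0.36, and the 3 were no longer called.

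After 5-aza-dC, the knockdown and control clones differed at 21 members, 1 higher and 20 lower in the knockdown clones, where 11.9% of all probes were higher and 6.91% lower. The median was -0.27, and 0.04 over all probes. Of the 229 other probes at log2 16 or more, 3.06% were higher and 42.4% lower, with a median of -0.51. For the 121 member probes in that range the shares were 4.13% and 24.8%, with a median of -0.25. This comparison uses the same 2 arrays of slide 2, so kind of clone and slide cannot be told apart. RPL17 was higher in the knockdown clones (0.81 ± 0.15, adjusted p = 0.018), with 16.44 and 16.19 against 15.50 and 15.51 on its brightest probe. Its other 3 probes gave -0.18, -0.13 and 0.38 in this comparison and were not called. RPL6 (-1.42), RPS12 (-1.37), RPS10 (-1.06) and RPL31 (-0.99) were lower, as was RPL4 (-0.91, adjusted p = 0.043). RPL4, which lines the peptide tunnel, read 16.65 and 16.47 in the treated knockdown and 17.68 and 17.28 in the treated control clones, and in the untreated control clones 17.14 and 16.65, so CONT1 was above CONT2 under both conditions. The methods' t-test called 0 of the 77 after adjustment, with 43 at an unadjusted p below 0.05, where over all 27286 probes it called 4, with 5962 unadjusted. Limma fitted on those 4 arrays alone called 2. With quantile normalization 17 members were higher and 3 lower.

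The response itself was tested between the kinds of clone as an interaction. Of all probes 4.02% had a higher and 1.56% a lower response in the knockdown clones, and of the 77 genes 0 were higher and 4 lower: RPL6, RPS12, RPS10 and RPL23A, with differences between -1.46 and -0.98. Each had risen in both control clones and not in the knockdown clones. The members' median was -0.22 and that of all probes 0.05. Of the 229 other probes at log2 16 or more, 0.873% had a higher and 10% a lower response (median -0.48). For the 121 member probes in that range the shares were 0% and 4.13% (median -0.23). Only RPS12 and RPL6 were called with the clone as a block, and only RPS12 on the spike-in scale. The direction of the members as a group turned with the scaling here too, with 1 higher and 1 lower under quantile normalization (median 0.19) and 10 higher and 2 lower with centring on bright probes (median 0.31).

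Genes that work with the ribosomal proteins gave a background for these values. Other translation genes with TOP mRNAs, such as the elongation factors and PABPC1, had 2 of 21 higher and 2 lower in the control clones, where 19.2% of all probes were higher and 22.6% lower, with a median of -0.23. TPT1, a growth-related protein, rose by 1.11 (adjusted p = 0.0029), while EEF1G (-0.74) and NAP1L1 (-0.73) fell. None of the 21 was called by limma in the knockdown clones (0 of 21), where 8.9% of all probes were higher and 2.89% lower. In the knockdown clones 3 of the 21 were at an unadjusted p below 0.05, and the median was -0.13.

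The mitochondrial ribosome has its own set of proteins, encoded in the nucleus. Of 76 mitochondrial ribosomal protein genes, 10 were higher and 27 lower in the control clones (median -0.28), and 0 higher and 11 lower in the knockdown clones (median -0.35). Of all probes tested, 19.2% were higher and 22.6% lower in the control clones, and 8.9% and 2.89% in the knockdown clones. MRPL46 (-0.99, adjusted p = 0.036), MRPL24 (-0.90) and MRPL10 (-0.88) fell in the knockdown clones, on arrays of the same slide, where none of the cytosolic ribosomal protein genes was called. The 2 sets were not matched for brightness. Among probes outside the cytosolic set, 0.873% were called lower there at log2 16 or more and 4.97% at log2 12 to 14. In the control clones the largest falls were those of MRPL23 (-1.69) and MRPL11 (-1.51). Ribosome assembly factors had 8 of 30 lower (26.7%, beside 22.6% of all probes) and 0 higher in the control clones. Among the 8 was DKC1 (-1.16), which modifies ribosomal RNA. In the knockdown clones 1 of the 30 was lower, NOLC1 (-0.79, adjusted p = 0.024). The median of the 30 in the knockdown clones was -0.42.

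RNA polymerase I, which transcribes ribosomal RNA, had 1 of 11 genes higher and 6 lower in the control clones (median -0.63), with TAF1B at -0.91 and POLR1A at -0.90. The shares over all probes were 19.2% higher and 22.6% lower in the control clones, and 8.9% and 2.89% in the knockdown clones. For the knockdown clones limma called 0 of 11, 5 were at an unadjusted p below 0.05, and all 11 were below 0 (median -0.49). Of 5 snoRNA host genes, whose transcripts also carry a TOP tract, SNHG1 fell in the knockdown clones (-0.77, adjusted p = 0.033) and 0 of 5 were called in the control clones, with 1 at an unadjusted p below 0.05.

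**Figure D5:**
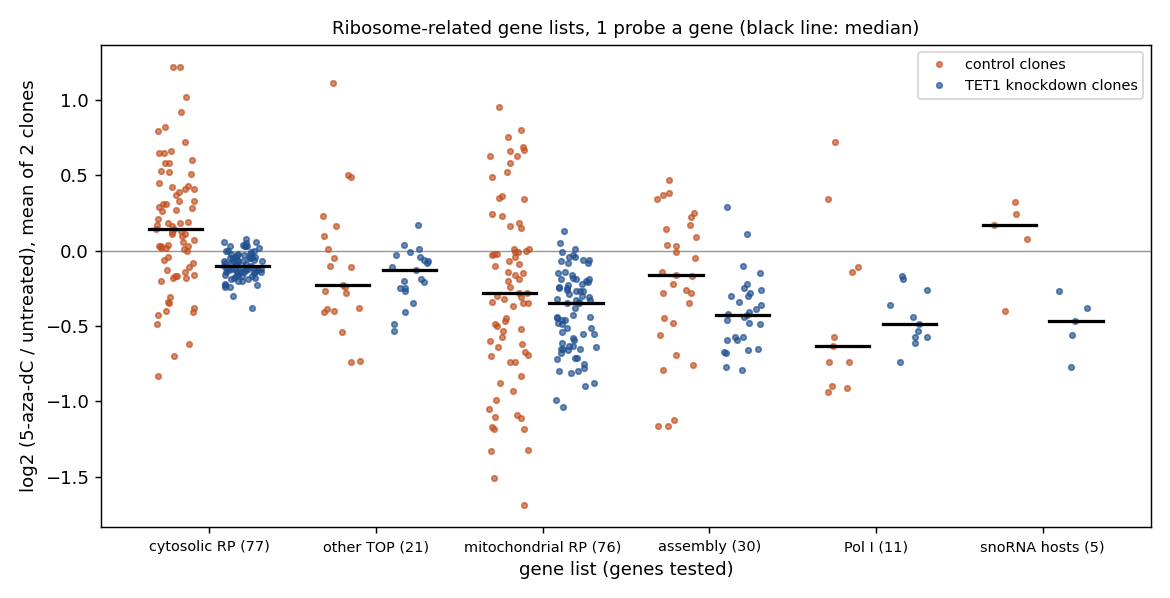
Each point is the log2 difference (5-aza-dC over untreated, mean of 2 clones) of 1 gene by its brightest probe, for the ribosomal protein genes (RP) and the lists that work with them, in control (left of each pair) and TET1 knockdown clones (right), with medians in black. In the knockdown clones the 77 cytosolic ribosomal protein genes lie between -0.38 and 0.08, and the medians of the mitochondrial ribosomal protein, assembly factor and polymerase I genes are -0.35, -0.42 and -0.49.

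Of the genes that answer to ribosomal stress, CDKN1A, a cell cycle inhibitor, was lower (-1.41, adjusted p = 0.0026) and MDM2 higher (0.70, adjusted p = 0.038) in the control clones. For the knockdown clones CDKN1A was at 0.51 (adjusted p = 0.148) and MDM2 at -0.10 (adjusted p = 0.806), and neither passed the test. CDKN1A read 10.31 and 10.11 untreated and 8.76 and 8.84 treated in the control clones, and 10.11 and 10.20 untreated and 10.89 and 10.44 treated in the knockdown clones. The differences had opposite signs in the 2 kinds of clone, and the difference in response was 1.92 (adjusted p = 0.019).

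The paralogs of ribosomal proteins that the naming rule leaves out included the largest changes. RPL39L, the paralog of RPL39 known from the male germ line, read 2.32 and 2.15 in untreated and 9.44 and 9.37 in treated control clones. It was not well above background in the untreated control clones and was at least 34.1-fold higher after treatment (adjusted p = 0.00083). In the knockdown clones it read 5.04 and 2.56 untreated, above background on 1 of the 2 arrays, and 9.66 and 9.25 treated (log2 5.65, adjusted p = 0.0046), within slide 1. RPL3L, the paralog of RPL3 of heart and skeletal muscle, read 5.49 and 5.41 untreated and 8.87 and 9.37 treated in the control clones (3.66, adjusted p = 0.0018). In the knockdown clones RPL3L read 4.55 and 5.23 untreated and 7.53 and 8.80 treated (3.27, adjusted p = 0.0064). Both paralogs were thus higher in all 4 clones. For RPL3L the response in the knockdown clones minus that in the control clones was -0.39, with a 95% interval from -1.94 to 1.16 (adjusted p = 0.748), and for RPL39L, not well above background on most untreated arrays, the responses were not compared.

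The other 6 paralogs moved less. RPL10L, a paralog of RPL10 without introns, fell in the control clones (-1.27, adjusted p = 0.0011) and differed by -0.18 in the knockdown clones. RPS27L rose in the control clones (0.63, adjusted p = 0.043) and was at 0.12 in the knockdown clones. RPL22L1, the paralog of RPL22, read between 17.17 and 17.25 in the control clones and differed by -0.01 there and by -0.17 in the knockdown clones, while RPL22 was lower in all 4. RPL7L1 was at -0.33 and -0.51, RPL26L1 at 0.35 and 0.00, and RPL36AL at 0.08 and -0.01, without passing the test in either kind of clone. Of the canonical partners, the brightest probes of RPL39 and RPL3 differed by 0.18 and 0.12 in the control clones, and neither was called. In the knockdown clones they differed by -0.04 and -0.10, again without a call. Another probe of RPL39, A_33_P3401301, was called higher in the control clones (0.60, adjusted p = 0.015) and differed by -0.01 in the knockdown clones.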

How the data were processed

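Total RNA of 8 HCT116 samples was labelled with Cy3 and hybridised to one-color Agilent arrays, and the authors deposited the scanner intensity of each spot from Feature Extraction 10.7.3.1 (10.7 in the submitters' processing notes), with background subtracted and no scaling between arrays. A table of values for the series held the same intensity values, with 100% within 1% of the scanner signal and column medians from 29.4 to 45.9, and gave an alternative. The study's methods name t tests with Benjamini-Hochberg correction.

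Here each array was divided by its 75th percentile of the 58717 spots that are not controls (395.5 to 623.7) and rescaled to a common level, values under 1 were set to 1, log2 was taken, and outlier spots were left out. Repeated probes were averaged, and a probe was tested when above background (at least 0.5 of its spots) on both arrays of a condition. This left 27286 of 50599 probes. All 8 arrays entered 1 limma fit (limma 3.58.1, R 4.3.3) of 4 condition means with 4 residual degrees of freedom, and p-values were adjusted over all probes tested, so that every adjusted p is limma's unless stated. The number of arrays limits the precision. On simulated data all 200 changed probes (log2 1, SD 0.1) were recovered in the control comparison (100%), with 6.1% false calls. Genes named were a fixed set of 22 members, up to 5 with the largest rise and fall called in a comparison, or the 3 smallest p-values where none was called. The members, named genes and lists were chosen with earlier results of these data known. The 2 arrays of a clone are paired by design; their deviations correlated at 0.198 in control and 0.476 in knockdown clones. Alternatives changed the background correction, scaling, filters, probe choice, test and arrays. Sequences are those of the array design and of RefSeq. Some genes are not reported here.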

Additional observations from a re-analysis of the deposited data

Results flagged for a closer look

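At 4 of the 77 genes the interaction test over all 8 arrays found unlike responses to 5-aza-dC in knockdown and control clones. For RPL6 the difference, knockdown minus control, was -1.46 (adjusted p = 0.02), from responses of 1.22 in the control and -0.24 in the knockdown clones. For RPS12 it was -1.46 (adjusted p = 0.017), from 1.22 and -0.23. For RPS10 it was -1.09 (adjusted p = 0.038), from 1.02 and -0.07, and for RPL23A -0.98 (adjusted p = 0.049), from 0.92 and -0.06. All 4 contrasts contain the 2 treated control arrays of slide 2, and slide and response cannot be told apart. The other probes of RPL6 and RPS10 did not repeat the rise in the control clones, and the mean over the probes of RPS10 gave a difference of 0.16. The probe used for RPL6 was dimmer than another of its probes in the untreated control clones (17.21 against 17.51). RPS12 was read by a single probe. Of the other probes of RPL23A, A_33_P3382560 was also called higher in the control clones (0.76, adjusted p = 0.011). Its probes A_24_P67699 (0.04) and A_24_P91140 (0.32) were not called there.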

How the results depend on the processing

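With 2 clones a condition and slide 2 holding a single condition, most limits concern the control clones. There, the 23 members called became 13 with no filter on dim probes, 58 of 174 when all member probes were counted (29 in each direction) and 14 with the mean of a gene's probes, and the median of 0.14 became -0.19 with quantile normalization, -0.07 on the spike-in scale, -0.28 with centring on bright probes (chosen after seeing the data), 0.22 with the GC trend removed, with or without the replicate block, and 0.03 with all probes or their mean. In the knockdown clones counting all probes gave 1 call, and centring on bright probes a median of 0.02. After 5-aza-dC the 21 calls became 11 on the spike-in scale, 11 with no filter, 2 with only the compared arrays, 0 with the methods' t-test, 47 with all probes and 9 with their mean, and the median of -0.27 became 0.15 (quantile), 0.11 (spike-ins), 0.25 (bright probes), -0.39 (GC trend, with or without the block), -0.13 (all probes) and -0.17 (their mean). For the difference in response the 4 calls became 7 with normexp, 2 (quantile), 1 (spike-ins), 2 (no filter), 7 (only probes above background on all 8 arrays), 2 with the replicate block, 0 with the block and the GC trend removed, 9 (all probes), 1 (mean of probes) and 12 (bright probes), and the median of -0.22 became 0.19 (quantile), 0.03 (spike-ins), 0.31 (bright probes), -0.34 (GC trend, with or without the block; 3 calls without it) and -0.14 (mean of probes). With the mean of their probes RPL5, RPS10 and RPSA turned to -0.07, -0.16 and -0.22 in the control clones, RPS10 and RPSA to 0.16 and 0.03 after 5-aza-dC, and RPS10 to 0.16 in the difference. Leaving out each array in turn gave 5 to 18 calls and medians of 0.11 to 0.15 in the control clones, 0 calls and -0.16 to -0.03 in the knockdown clones, 0 calls and -0.09 to 0.03 untreated, 7 to 15 calls and -0.30 to -0.25 after 5-aza-dC, and 0 to 2 calls and -0.28 to -0.17 for the difference, where a lone array was assumed to vary like the other conditions. The cause of these changes was not tested. The clone as a block left 23 and 0 calls in the control and knockdown clones, and pairing by number, which different clones only share, left 0 untreated and 15 after 5-aza-dC. Crossing the numbers of the untreated clones, chosen after seeing the data, called 0 members. Keeping saturated spots changed nothing, since there were none, and the GC trend was not removed from comparisons of untreated clones, which have no response.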
